A study of Solanum lycopersicum with 28 samples.

Results

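In leaf chromatin of tomato, the peak list of RNA polymerase II (Pol2) and that of acetylation of lysine 9 of histone H3 (H3K9ac) were compared peak by peak. The 2 lists held 70998 Pol2 peaks and 78175 H3K9ac peaks on chromosomes 1 to 12, together 149173 of the 3381748 peaks that the 28 lists of the series held there. All deposited peaks on these chromosomes entered. A peak was called shared when it overlapped a peak of the other list by at least 1 bp, which is also what "touched" means below, and exclusive otherwise. The series mapped 27 antibody targets and the Input (chromatin without immunoprecipitation) by ChIP-seq, which sequences the DNA recovered with an antibody. All libraries came from leaves of the wild-type cultivar M82, with the treatment given as Non, from plants of 4 weeks kept at 24 °C under 16 h of light. Reads were 75 bp long and single-ended, 10 ng of DNA went into each library, and the labels give 1 library per target. No spread between replicates could therefore be measured. Intervals in square brackets are 95% Wilson intervals over peaks, or over pairs of peaks. They cover counting error only, since there was 1 library per target and neighbouring peaks are not independent. Values per chromosome are given as ranges because chromosomes are not replicates. Positions are those of version 1 of the M82 genome, counted from 1. No gene annotation of that genome was used, so that no peak was assigned to a gene and the leaf label was not checked against marker genes.

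RNA polymerase II is the enzyme that transcribes protein-coding genes. H3K9ac is placed by histone acetyltransferases, of which GCN5 is a well-known example in Arabidopsis, and it is typically found around the starts of active genes together with H3K4me3 and other acetylations. H3K36me3 and H3K4me1 lie further into the bodies of genes in plants, H3K27me3 is the mark of Polycomb repression, and H3K9me2 marks constitutive heterochromatin, the condensed and mostly silent part of the genome.

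Most peaks of each list touched the other. Of the Pol2 peaks, 50574 (71.2% [70.9 to 71.6]) touched H3K9ac, against 26.3% of the peaks of the other 25 targets and the Input that did so. Of the H3K9ac peaks, 55772 (71.3% [71.0 to 71.7]) touched Pol2, against 23.8% of the same other peaks. This left 20424 exclusive Pol2 peaks and 22403 exclusive H3K9ac peaks. The shared share per chromosome ran from 67.4% (chromosome 12) to 75.6% (chromosome 2) for Pol2 and from 69.1% (chromosome 9) to 73.9% (chromosome 2) for H3K9ac. Each list was the most frequent partner of the other: the next list for Pol2 peaks was H3K18ac, touched by 63.0%, and the next for H3K9ac peaks was also H3K18ac, touched by 69.2%. The lead of Pol2 was not symmetric, because 9 of the other lists had a larger part of their own bases inside H3K9ac than the 57.2% of Pol2, up to 72.4% for H3K79ac. By peaks Pol2 had rank 4 for touching H3K9ac, at 71.23%, behind H4K5ac (75.3%), H3K79ac (75.3%) and H4K12ac (71.25%). H3K9ac had rank 1 for touching Pol2, just ahead of H4K5ac (71.0%). The pooled 26.3% and 23.8% include large lists with low shares, such as H3K56me2, of whose peaks 0.87% touched H3K9ac and 1.18% touched Pol2.

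The lists covered almost the same amount of the genome but not the same bases. Pol2 covered 75.3 Mb (9.39% of the 12 chromosomes) and H3K9ac 75.1 Mb (9.37%), of which 43.0 Mb were common. Common bases made up 40.1% of the bases in either list, and no Pol2 peak had the same limits as an H3K9ac peak. A shared Pol2 peak was covered by H3K9ac over a median of 72.8% of its width and a shared H3K9ac peak by Pol2 over 63.0%. Overlaps under 50 bp accounted for 2.61% of shared Pol2 peaks and 3.37% of shared H3K9ac peaks. When a peak had to be covered over at least 50% of its width, the shares fell from 71.2% to 51.6% for Pol2 and from 71.3% to 42.9% for H3K9ac.

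Peaks of the Input lay under many shared peaks, and leaving out the peaks that touched them moved the shares most. The Input list was dense, with 344406 peaks of a median width of 118 bp. Of these Input peaks, 1.80% had a q-value under 0.05. An Input peak was touched by 53.7% of shared against 32.1% of exclusive Pol2 peaks, and by 51.7% of shared against 24.3% of exclusive H3K9ac peaks. With only those peaks of both lists that touched no Input peak, 39.2% of Pol2 and 35.4% of H3K9ac peaks were shared. With peaks classed on the complete lists and those at Input peaks then left out, a setting chosen after seeing the data, the shares were 62.8% and 61.3%. Input peaks were touched more often by wider peaks in both lists, and the part of the Input in the sharing was not tested.

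Touching peaks formed 77825 groups, of which 34998 held both targets. A single Pol2 peak met a single H3K9ac peak in 19242 groups. A single Pol2 peak spanned several H3K9ac peaks in 6427 groups, the reverse held in 3237 groups, and 6092 groups held several of each. Pol2 peaks that touched 3 or more H3K9ac peaks were 4.91% of the list and had a median width of 3515 bp, against 540 bp for those that touched 1. The group spanning the most bases lay at chr6:49879500-49920420, where 10 Pol2 and 9 H3K9ac peaks chained over 40921 bp. The group with the most peaks lay at chr4:523762-542992 and held 13 Pol2 and 10 H3K9ac peaks.

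Shared peaks were wider and stronger than exclusive ones in both lists. The median width was 668 bp (quartiles 420 and 1287 bp) for shared and 372 bp (258 and 613 bp) for exclusive Pol2 peaks, a log2 ratio of 0.84 that ran from 0.68 to 1.01 over the chromosomes. For H3K9ac the medians were 832 bp (396 and 1416 bp) and 307 bp (219 and 479 bp), a log2 ratio of 1.44 that ran from 1.38 to 1.49. A wide peak has more bases with which to meet another, so that some difference in this direction comes with the overlap rule. The gap was smaller when no Input peak was touched by either list, with log2 ratios of 0.48 for Pol2 and 0.79 for H3K9ac. The median fold, which is the ratio of reads at the peak to the local background as given by the peak caller, was 3.88 for shared and 2.04 for exclusive Pol2 peaks, and 3.43 and 2.10 for H3K9ac.

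**Figure D1:**
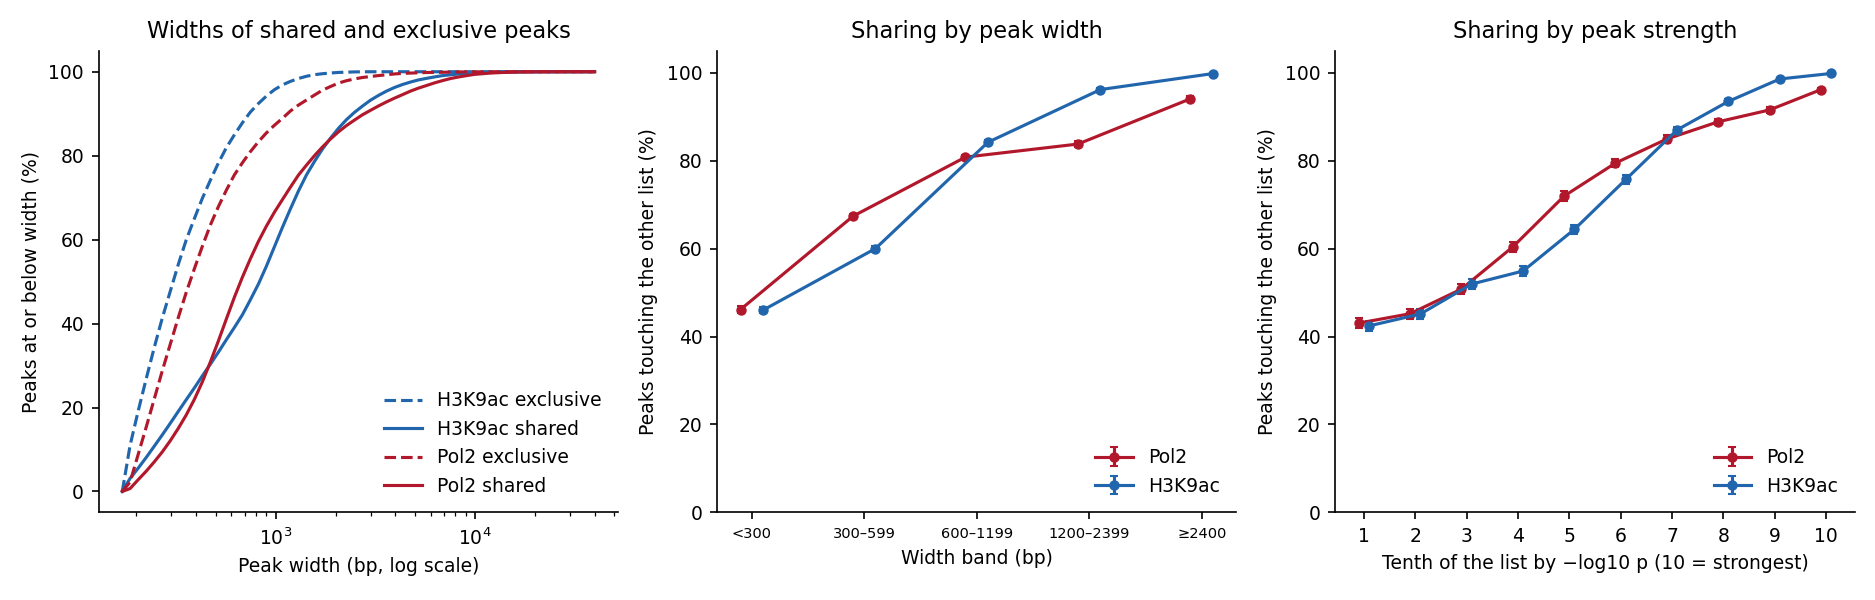
Left, the percentage of peaks at or below each width (bp, log axis) for shared (solid) and exclusive (dashed) peaks of Pol2 (red) and H3K9ac (blue). Middle and right, the percentage of peaks that touched the other list in 5 width bands and in 10 equal parts of each list ranked by −log10 p, with 95% Wilson intervals; the shares climbed from 46.1% to 94.1% for Pol2 and from 46.0% to 99.8% for H3K9ac between the narrowest and the widest band.

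Sharing rose with width at every step. Of Pol2 peaks under 300 bp, 46.1% were shared, and of those of 2400 bp or more, 94.1%. H3K9ac started at the same level (46.0%) and reached 96.2% at 1200 to under 2400 bp and 99.8% at 2400 bp or more. Long H3K9ac peaks without Pol2 were thus rare, 11 of 5779, whereas 382 of 6444 long Pol2 peaks had no H3K9ac. Between the lowest and the highest 10% of peaks by −log10 p the share went from 43.1% to 96.2% for Pol2 and from 42.4% to 99.8% for H3K9ac. Within the single band of 300 to under 600 bp it still went from 46.8% in the weakest to 83.1% in the strongest 25% of Pol2 peaks, and from 47.3% to 75.3% in H3K9ac. Strength thus went with sharing inside this band too, but width was not held constant there. Between the weakest and the strongest 25% the median width rose from 382 to 500 bp for Pol2 and from 371 to 468 bp for H3K9ac.

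Where 1 Pol2 peak met 1 H3K9ac peak, the pair was usually displaced rather than nested. In 70.0% [69.3 to 70.6] of the 19242 pairs each peak reached past the other on 1 side, in 15.9% the Pol2 peak lay inside the H3K9ac peak and in 14.1% the reverse held. The median distance between midpoints was 310.5 bp (quartiles 172 and 451 bp), and it ran from 291.5 to 322.5 bp over the chromosomes. Midpoints lay less than 100 bp apart in 14.5% of pairs and 1000 bp or more apart in 2.46%. Summits, the positions of highest pileup, lay a median of 221 bp apart. The Pol2 midpoint was at the higher coordinate in 49.6% [48.9 to 50.3] of pairs, so that Pol2 lay about equally often to either side along the sequence.

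Pol2 was the narrower partner of these pairs. Its median width was 551 bp against 817 bp for H3K9ac, the median difference within a pair was -174 bp (quartiles -508 and 170 bp), and Pol2 was the wider of the 2 in 36.5% of pairs. With peaks that touched no Input peak the median difference shrank to -45 bp. Across the 19242 pairs Spearman's rho was 0.31 between the 2 widths and 0.40 between the 2 folds, a description over pairs that share libraries and their local depth.

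The displacement went with an asymmetry of other marks. The 16459 1-to-1 pairs whose midpoints were at least 100 bp apart were turned so that Pol2 lay to the right of the H3K9ac midpoint, and the presence of every other list was read at points 50 bp apart from 500 to 2000 bp on either side. The values below are means over these points of the percentage of pairs with a peak at the point, not the percentage of pairs with a peak anywhere in the window. H3K36me3, which accompanies elongating polymerase in gene bodies, had a mean presence of 5.79% on the Pol2 side and 42.4% on the other side, a difference of -36.6 percentage points (-42.5 to -34.1 over the chromosomes). H3K4me1, also a mark of gene bodies in plants, had the widest gap, a mean presence of 10.8% against 48.6% (-37.8 points). H3K4me2 followed with 11.9% against 41.1%, and H3K4me3, the mark of active gene starts, with 8.44% against 17.0%. The sign of each of these 4 differences was the same on all 12 chromosomes. Counted over the 16459 pairs, H3K36me3 covered more of the window opposite Pol2 in 8276 and more of the window on the Pol2 side in 1445. It covered both windows equally, or neither, in 6738. For H3K4me1 these counts were 8936, 1889 and 5634.

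**Figure D2:**
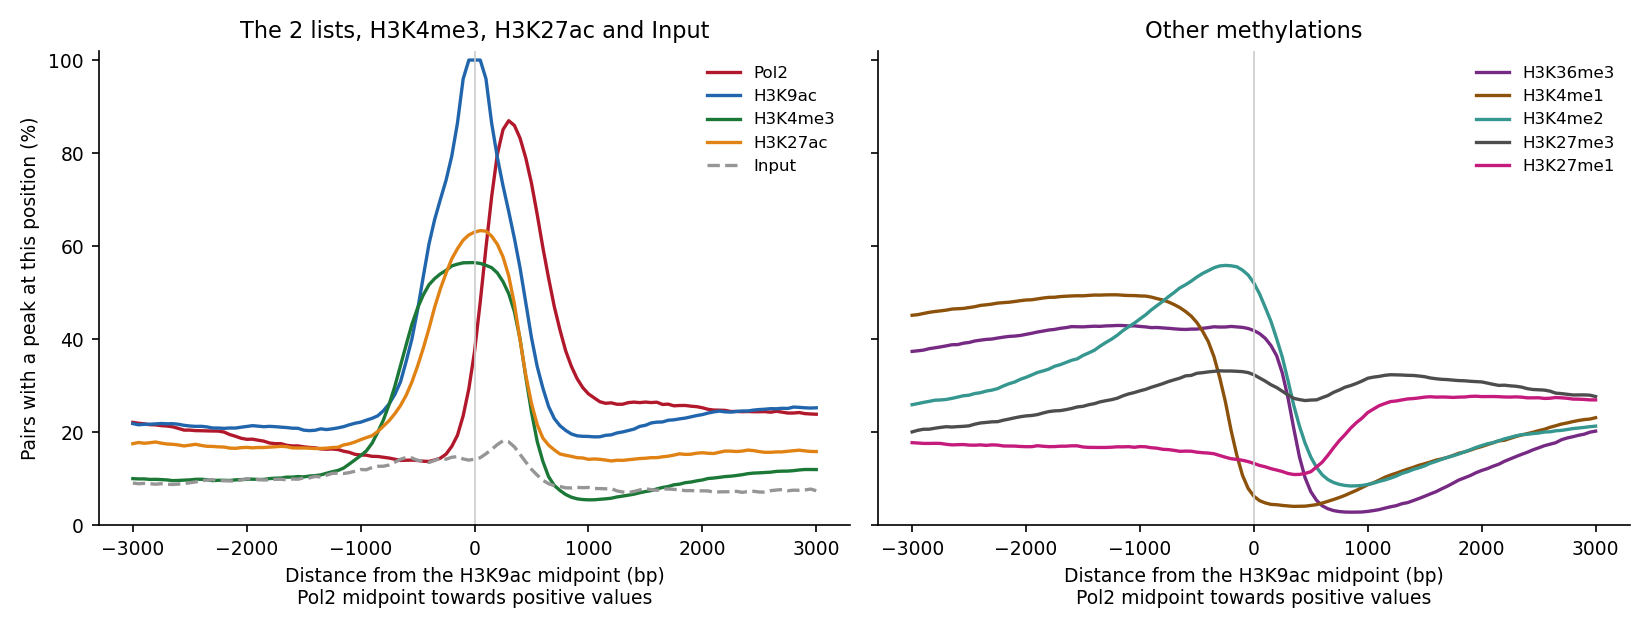
Percentage of 16459 pairs in which a list had a peak at each distance (bp) from the H3K9ac midpoint, with every pair turned so that the Pol2 midpoint lies at positive distances. Pol2 was highest at 300 bp, H3K36me3 and H3K4me1 were high on the negative side and low on the positive side (means of 42.4% against 5.79% and of 48.6% against 10.8% over the points from 500 to 2000 bp), and the Input (dashed) had a rise of its own near the Pol2 maximum.

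Along these turned pairs Pol2 was highest at 300 bp, where 87.0% of pairs had a Pol2 peak. H3K4me3 was highest at the H3K9ac midpoint with 56.5% but reached further on the side away from Pol2, with 46.7% at -500 bp against 24.3% at 500 bp. H3K36me3 had a plateau of up to 43.0% on the side away from Pol2. H3K4me2 was highest at -250 bp with 55.9%. The acetylations were nearly even, since the 12 others differed between the sides by -3.85 (H3K27ac) to 3.82 (H3K18ac) percentage points. H3K27me1, counted with constitutive heterochromatin in the study, was the mark most shifted to the Pol2 side, with a mean presence of 23.9% against 16.7%, a difference of 7.18 points, and H3K27me3 had a difference of 3.23 points. In pairs with no Input peak at either peak these 2 differences were 2.99 and 0.61 points, and both were below 0 with Pol2 peaks of 1200 bp or more. Of the H3K27me1 peaks 0.0125% had a q-value under 0.05, and of the H3K27me3 peaks 26.6%. The Input, made without an antibody, differed by -3.30 points.

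The asymmetry depended on the width of the Pol2 peak, a split added after seeing the data. The difference for H3K36me3 was -14.4 points with Pol2 peaks under 300 bp, -41.1 at 300 to under 600 bp, -48.8 at 600 to under 1200 bp and -28.0 at 1200 to under 2400 bp. In the 803 pairs with Pol2 peaks of 2400 bp or more it turned to 5.59 points, from 25.1% on the Pol2 side and 19.5% on the other. H3K4me1 turned to 22.5 points there, from 44.7% and 22.2%. With long Pol2 peaks these 2 marks of gene bodies were thus present on both sides of H3K9ac. Their mean presence was higher on the Pol2 side, slightly so for H3K36me3, unlike with the shorter peaks. In the 5174 pairs with no Input peak at either peak the H3K36me3 difference was -20.5 points, and with lists stripped of all peaks at Input peaks before pairing it was -13.9 points.

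Most exclusive peaks lay less than 10 kb from the other list, although no distance of other peaks was measured for reference. The median distance to the nearest peak of the other list was 1249 bp (quartiles 417 and 3238 bp) for exclusive Pol2 peaks and 760 bp (249 and 1998 bp) for exclusive H3K9ac peaks. Distances under 100 bp, at which a small change of peak limits would make the peak shared, held for 8.60% of exclusive Pol2 and 11.6% of exclusive H3K9ac peaks. At 10 kb or more stood 1253 Pol2 peaks (6.13%) and 1675 H3K9ac peaks (7.48%). Of these isolated peaks, 21.9% of the Pol2 and 14.03% of the H3K9ac ones lay in the outer 10% at either end of a chromosome, against 53.0% and 50.6% of all exclusive peaks. Both lists were sparse in the interior, where a gap of 10 kb is easier to reach, so that some difference in this direction comes with the distance rule.

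The clearest difference between shared and exclusive Pol2 peaks was in the other acetylations. Of the 12 other acetylation lists, a shared Pol2 peak touched a median of 10 and an exclusive one a median of 1. None was touched by 8.73% of shared and 48.1% of exclusive Pol2 peaks, and all 12 by 40.2% and 2.25%. Each of the 12 was touched more often by shared peaks, by 36.1 (H3K18ac) to 52.4 (H3K79ac) percentage points. The 3 largest gaps were those of H3K79ac (62.4% against 10.0%), H4K8ac (69.2% against 20.1%) and H4K20ac (62.0% against 13.2%), acetylations of the core of histone H3 and of histone H4. The direction was the same for 12 of 12 acetylations in each of the 5 width bands. In the band of 300 to under 600 bp a shared Pol2 peak touched a median of 7 and an exclusive one a median of 1.

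**Figure D3:**
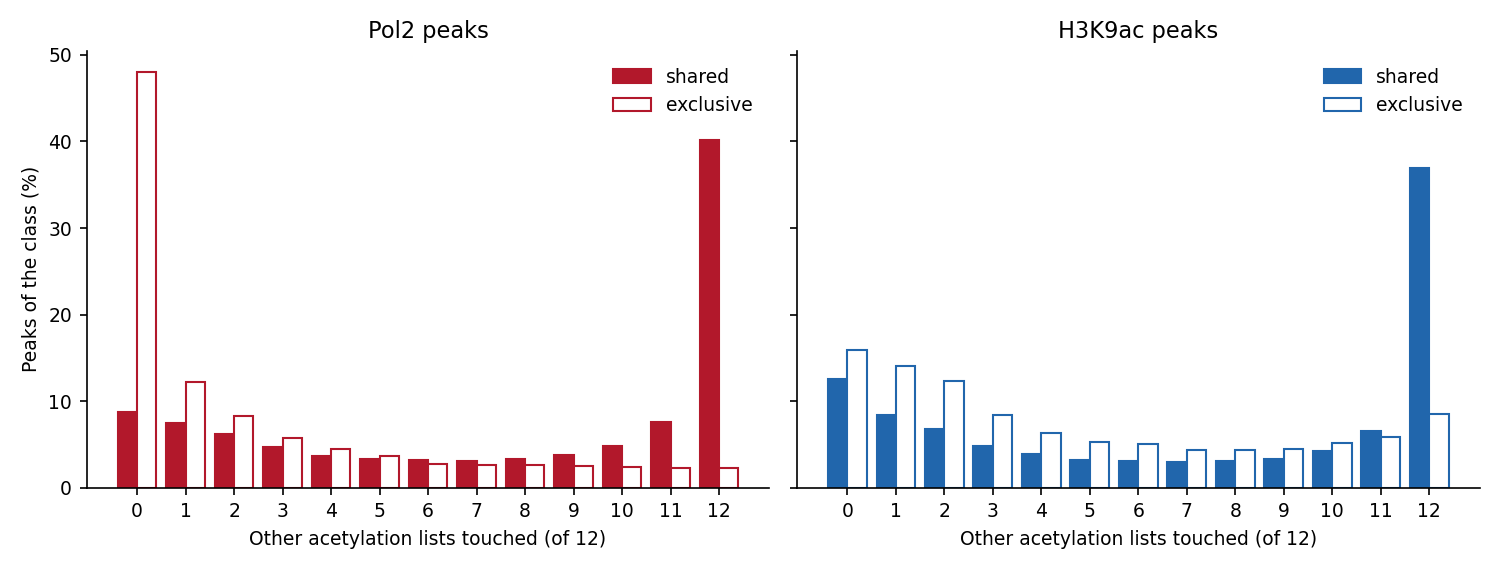
Percentage of shared (filled) and exclusive (open) peaks of Pol2 (left) and H3K9ac (right) by how many of the 12 other acetylation lists they touched. Exclusive Pol2 peaks piled up at none (48.1%) and shared peaks of both lists at all 12 (40.2% and 36.9%), while exclusive H3K9ac peaks were spread out.

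For H3K9ac the same comparison gave a weaker and width-dependent result. Shared H3K9ac peaks touched a median of 9 and exclusive ones a median of 3 of the 12 other acetylations, and none was touched by 12.6% and 15.9%. All 12 acetylations were touched more often by shared peaks over the whole list, by 9.99 (H3K18ac) to 25.7 (H4K12ac) points, but below 600 bp 12 of 12 were touched more often by exclusive peaks. At 600 to under 1200 bp and at 1200 to under 2400 bp, 11 of 12 were touched more often by shared peaks. The 3 largest gaps over the whole list were H3K23me3 (32.4% against 6.28%), H4K12ac (57.2% against 31.4%) and H3K4ac (51.4% against 25.8%).

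H3K4me3 set the 2 lists apart in the same manner. It was touched by 52.1% of shared and 8.27% of exclusive Pol2 peaks, and the direction held in 5 of 5 width bands. Among H3K9ac peaks it was touched by 43.7% of shared and 23.7% of exclusive ones, a gap of 19.9 points that turned to -0.0928 points [-0.780 to 0.595] when sharing required 50% cover. Under 300 bp 7.70% of shared and 16.6% of exclusive H3K9ac peaks touched H3K4me3, and at 600 to under 1200 bp 54.2% and 41.0% did so. Narrow H3K9ac peaks with Pol2 were thus less often at H3K4me3 than narrow H3K9ac peaks without it. When peaks at Input peaks were removed from both lists the gap in H3K4me3 was 4.12 points for Pol2 and 7.08 points for H3K9ac. With the classes of the complete lists kept, it was 29.1 and 1.57 points.

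The 2 exclusive classes differed in the methylations they touched. H3K4me1 was touched by 45.6% [44.9 to 46.3] of exclusive Pol2 peaks and 16.1% of exclusive H3K9ac peaks. H3K36me3 was touched by 33.4% and 5.98%, and H3K27me3 by 31.6% and 68.0%. Exclusive Pol2 peaks were thus more often at marks of gene bodies and exclusive H3K9ac peaks more often at the Polycomb mark. Against their shared counterparts, exclusive Pol2 peaks touched H3K4me1 more often (45.6% against 21.5%, in 5 of 5 width bands), followed by H3K23me1 (13.8% against 3.77%) and H3K14me1 (9.93% against 2.69%), which the study counts as heterochromatin marks. H3K36me3 was close to even over the whole list (33.4% against 32.6%), with 33.1% against 15.1% under 300 bp. By bases, H3K23me1 lay on 8.88% of exclusive Pol2 peaks and H3K14me1 on 6.18%. Both were below their shares of the genome, 35.6% and 35.5%.

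Exclusive H3K9ac peaks touched H3K27me3 more often than shared ones (68.0% against 48.4%), in 4 of the 4 width bands that held at least 50 peaks of each class. The other methylations of lysine 27 followed, H3K27me2 with 69.2% against 60.5% and H3K27me1 with 27.5% against 22.1%. Pol2 went the other way, since H3K27me3 was touched by 51.1% of shared and 31.6% of exclusive Pol2 peaks. By bases, H3K27me2 lay on 59.1% of exclusive H3K9ac peaks, above its 38.0% of the genome. H3K27me1 lay on 21.4% of these bases, below its 38.0% of the genome. H3K27me3 was a broad list that covered 10.2% of the genome, and a touch does not show that both marks were on the same nucleosome or in the same cells. H3K9me2 was touched by 0.140% [0.111 to 0.177] of shared Pol2 peaks and by more of the exclusive ones [1.72 to 2.10%], although its list covered 42.8% of the genome.

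**Figure D4:**
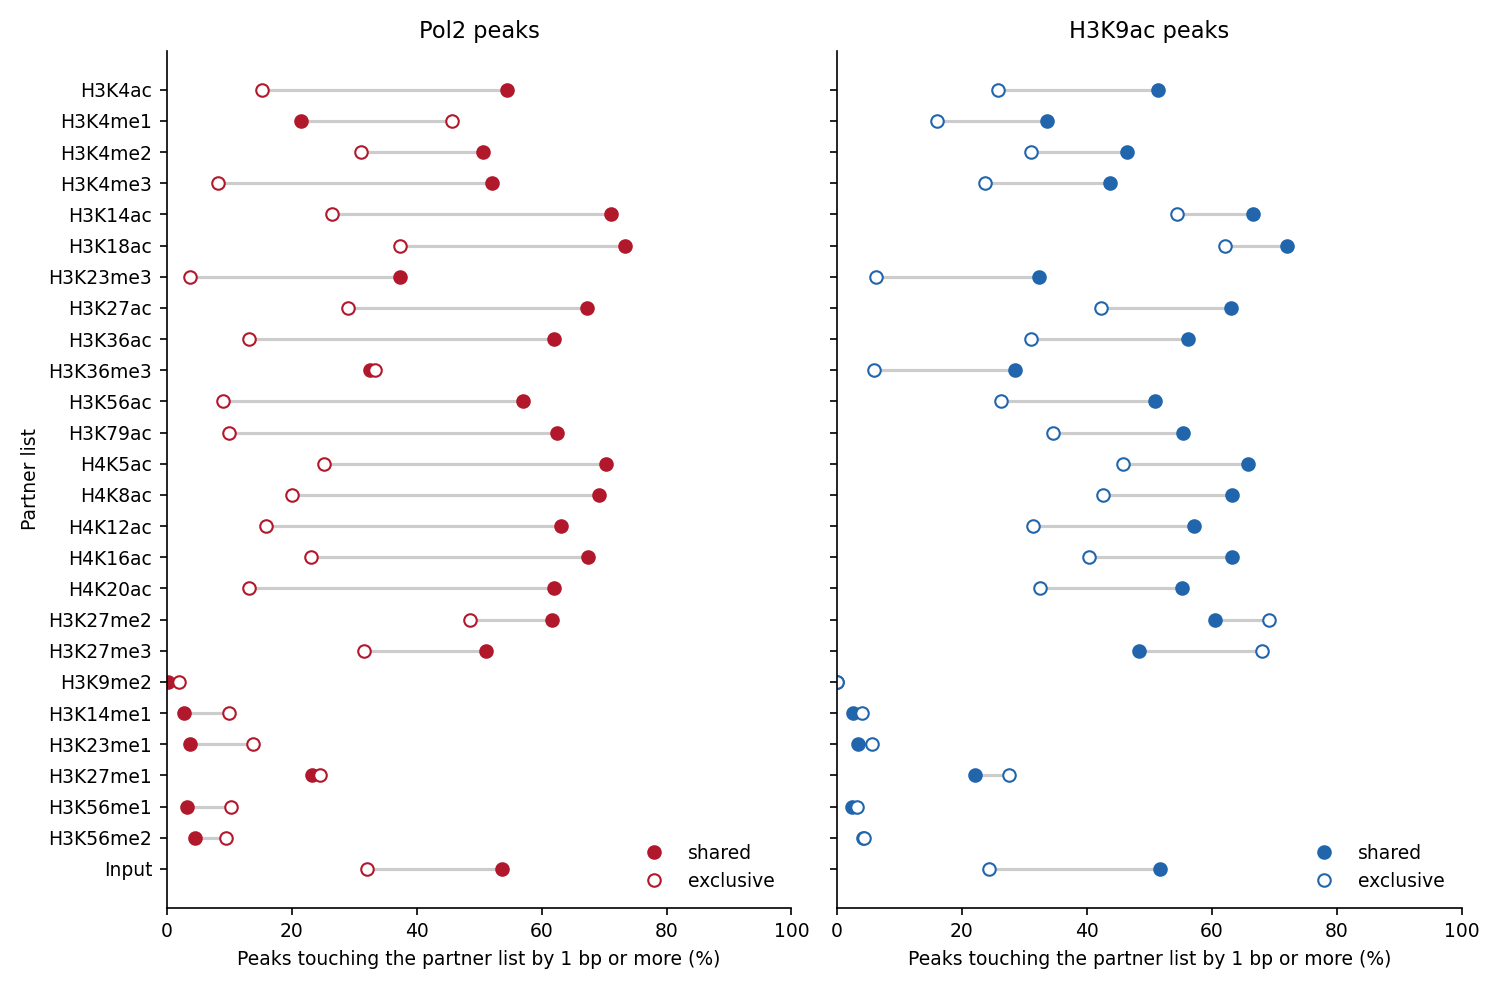
Percentage of shared (filled) and exclusive (open) peaks of Pol2 (left) and H3K9ac (right) that touched each of 25 other targets and the Input. For Pol2 the filled points lay far to the right for the acetylations and H3K4me3 and to the left for H3K4me1 (21.5% against 45.6%), and for H3K9ac the open point lay to the right for H3K27me3 (68.0% against 48.4%).

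Read by bases instead of peaks, stretches with both targets and stretches with H3K9ac alone had more of the acetylations and of H3K4me3 than stretches with Pol2 alone. H3K4me3 lay on 36.9% of the bases in both lists, on 37.1% of those in H3K9ac alone and on 3.99% of those in Pol2 alone, against 4.95% of the genome. H3K79ac lay on 40.7%, 41.2% and 5.06% of these bases. Not every acetylation was as low with Pol2 alone, since H3K18ac lay on 45.7%, 43.7% and 26.2%, against 8.99% of the genome, and H3K4ac differed between the first and the second (29.4% and 22.9%). H3K27me3 was on 27.1% of the common bases, on 46.6% of those in H3K9ac alone and on 17.2% of those in Pol2 alone. H3K4me1 was highest with Pol2 alone, on 35.0% of the bases in Pol2 alone, 17.5% of those in H3K9ac alone and 10.9% of the common bases.

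Splitting the exclusive Pol2 peaks by H3K4me1 and H3K36me3, after seeing the data, showed 2 large kinds. Both marks were touched by 6623 (32.4%) of them, and 83.5% of these touched none of the 12 acetylations. Neither was touched by 10917 (53.5%), which lay nearer to H3K9ac (a median of 721 bp against 2247 bp) and of which 34.0% touched no acetylation. H3K4me1 alone was touched by 2695, and H3K36me3 alone by 189. Exclusive H3K9ac peaks were split by H3K27me3 and H3K4me3. H3K27me3 alone was touched by 12087 (54.0%), with a median of 3 acetylations. H3K27me3 together with H3K4me3 was touched by 3154 (14.1%), with a median of 11 acetylations and 34.1% in the outer 10% at either chromosome end. H3K4me3 alone was touched by 2165 and neither by 4997.

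The exclusive peaks of high fold in each list were read on their own, since the folds of the 2 lists may differ in scale. A fold of 10 or more, a limit set after seeing the data, was reached by 88 exclusive Pol2 peaks and 68 exclusive H3K9ac peaks, against 2637 and 11833 shared ones. Of the 68 H3K9ac peaks, 66 touched all 12 other acetylations and 100% touched H3K4me3. The shared H3K9ac peaks of that fold were much alike, with 11343 of 11833 at all 12 and 95.8% at H3K4me3. Of the 88 Pol2 peaks, 3 touched all 12, 24 touched none and 9.09% touched H3K4me3. Of the 2637 shared Pol2 peaks of that fold, 2033 touched all 12, 2.35% touched none and 76.1% touched H3K4me3.

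Exclusive Pol2 peaks of the highest fold and the greatest length were of unlike composition. The highest fold, 16.7, was at chr1:71449179-71451636, which is 281 bp from the nearest H3K9ac peak and touched 7 of the other 25 targets, among them 1 acetylation. This peak was covered to 51.6% by H3K9me2, to 49.5% by H3K56me1 and to 42.3% by H3K14me1, marks of constitutive heterochromatin in the study. The next, with a fold of 15.5, was at chr8:55819047-55821229, 2310 bp from H3K9ac, and touched 1 target and no acetylation. The longest exclusive Pol2 peak, 20567 bp at chr2:45879537-45900103, was covered to 90.6% by H3K4me1 and to 85.1% by H3K36me3. The next, 16047 bp at chr3:58170907-58186953, was covered to 100% by both marks. Both long peaks were thus nearly filled by the marks of gene bodies.

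The exclusive H3K9ac peaks of the highest fold lay far from Pol2 and were wider than most of their class. At chr9:8540371-8541159 a peak of 789 bp had a fold of 22.6, lay 32592 bp from Pol2 and touched all 12 acetylations. At chr5:56797955-56798871 a peak of 917 bp had a fold of 21.7, lay 39035 bp from Pol2 and again touched all 12. H3K4me3 covered 77.3% of the first and 75.5% of the second. The longest exclusive H3K9ac peaks measured 3164 bp (chr2:52299978-52303141) and 2929 bp (chr8:61473050-61475978), lay 201 and 1716 bp from Pol2 and had folds of 3.21 and 3.22. They were covered to 66.6% and 16.4% by H3K27me3.

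The strongest shared H3K9ac peaks were nearly filled by Pol2. The highest fold, 33.5, was at chr12:4602076-4605515 (100% covered by Pol2), and the next, 32.8, at chr11:4086247-4095801 (93.6%). The longest shared H3K9ac peaks, 25631 bp at chr6:49892356-49917986 and 23877 bp at chr12:68770204-68794080, were covered to 96.2% and 92.6%. Shared Pol2 peaks of the greatest length were covered much less by H3K9ac. Those at chr2:46906265-46945980 (39716 bp) and chr1:72393954-72425095 (31142 bp) were covered to 4.61% and 7.84% by H3K9ac, but to 97.5% and 89.5% by H3K4me1. The shared Pol2 peaks of the highest fold, 20.2 at chr4:40029318-40037692 and 19.8 at chr10:51343799-51347159, were covered to 87.6% and 11.7% by H3K9ac. Each of these 8 shared peaks touched all 12 other acetylations.

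Both lists were concentrated at chromosome ends, and shared peaks slightly more so. The outer 10% at each end held 57.8% [57.4 to 58.3] of shared and 53.0% [52.4 to 53.7] of exclusive Pol2 peaks, a difference of 4.80 points. It was positive on 11 of 12 chromosomes, from -0.95 on chromosome 6 to 11.6 on chromosome 5. For H3K9ac the shares were 58.5% and 50.6%, a difference of 7.80 points that was positive on 12 of 12 chromosomes (4.66 to 13.04). Of the Input peaks, 25.5% lay in these zones. Within each of the 5 width bands the shared share was also higher in the outer zones than in the centre in both lists, for instance 63.9% against 55.1% of H3K9ac peaks of 300 to under 600 bp, but the intervals of the zones overlapped for Pol2 peaks of 600 to under 1200 bp and for H3K9ac peaks of 1200 bp or more.

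**Figure D5:**
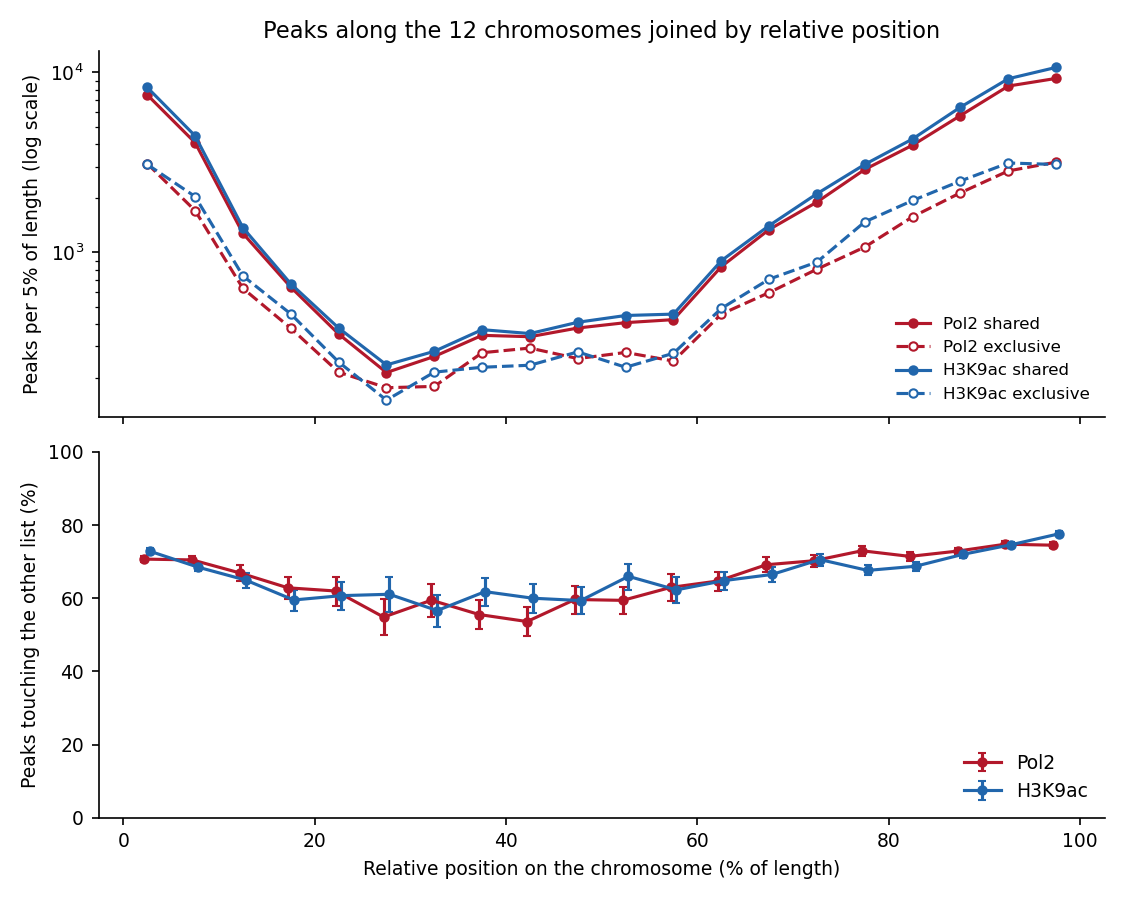
Top, shared (filled, solid) and exclusive (open, dashed) peaks in each 5% of chromosome length (log axis), summed over 12 chromosomes. Bottom, the percentage of peaks that touched the other list at the same positions, with 95% Wilson intervals; it was lowest in the interior, 53.6% for Pol2 and 56.6% for H3K9ac, and reached 77.6% for H3K9ac in the last 5%.

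Along the chromosomes joined by relative position, the shared share had its lowest value in the interior, where peaks were few. It was 53.6% for Pol2 at 40 to 45% of the length and 56.6% for H3K9ac at 30 to 35%. Towards the far end it reached 74.8% for Pol2 and 77.6% for H3K9ac. The counts changed far more than the shares, from 215 shared Pol2 peaks at 25 to 30% of the length to 9269 in the last 5%.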

How the data were processed

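ChIP-seq peak lists of M82 leaf were used, 1 library per target per the labels. The authors prepared reads with Trimmomatic 0.38, aligned them to the M82 genome version 1 (Bowtie2 2.3.5), discarded duplicates and alignments with a mapping quality under 30 (SAMtools 1.9) and called peaks with MACS2 2.2.7.1 at p 0.05. The methods give 2 biological replicates, and whether a list pools them, or was called against the Input, is not stated in any source at hand. The deposited values are a fold (ratio of pileup to local background), the −log10 p-value, the −log10 q-value and the offset of the summit. The lists hold no read totals, so that depth is unknown, and folds of different lists may not share a scale.

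Overlaps were computed with numpy 2.4.6 and pandas 2.3.3, checked on simulated intervals. Chromosome length was the largest peak end. Partner lists of the narrow and broad formats were all read in full. A q-value under 0.05 was held by 93.3% of Pol2, 91.2% of H3K9ac and 93.2% of H3K4me1 peaks. It was held by 8.10% of H3K36me3, 26.6% of H3K27me3, 0.404% of H3K27me2 and 0.0125% of H3K27me1 peaks. For H3K14me1 and H3K23me1 the shares were 0.00882% and 0.00926%. Results with these broad lists thus rest mostly on weak calls. Named peaks are the 2 of highest fold and the 2 longest at q under 0.05 in each class, and the longest and most crowded groups. Named marks are the 3 highest and 3 lowest by shared minus exclusive share, plus a set list that included H3K4me3, H3K36me3, H3K27me3 and H3K9me2. Members and lists were chosen with earlier results of these data known. No p-value was computed, since there was 1 library per target. Alternatives were 50% cover, fold above 1.5, q under 0.05, no Input peak touched, and peaks within 1000 bp joined.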

Additional observations from a re-analysis of the deposited data

Results flagged for a closer look

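Outside the 12 chromosomes, H3K9ac had 94 peaks on the sequence named chrC, and they covered 37.2% of it. The Input had 156 peaks there that covered 36.01%, and Pol2 had 0. The highest fold there was 1.48 in the H3K9ac list and 9.79 in the Input list. A single Pol2 peak of 274 bp with a fold of 3.51 covered 3.36% of the unplaced sequence ctg00000033, where neither H3K9ac nor the Input had a peak. These values stood out because they lie in sequences that entered no comparison and exceed the cover by Input peaks.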

How the results depend on the processing

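Of 63 alternative values for 11 results, 14 stayed within the counting interval of the main value, 48 moved out of it and 1 changed sign. In the order Pol2 share, H3K9ac share, log2 width ratio of Pol2 and of H3K9ac, difference in terminal share of Pol2 and of H3K9ac, and H3K4me3 gap of Pol2 and of H3K9ac, 50% cover gave 51.6%, 42.9%, 0.53, 0.58, 3.14, 6.64, 35.9 and -0.0928. No Input peak gave 39.2%, 35.4%, 0.48, 0.79, 6.08, 7.17, 4.12 and 7.08. Joining within 1000 bp gave 77.2%, 78.6%, 1.79, 2.15, 6.62, 12.8, 60.5 and 38.8. The setting chosen after seeing the data, with peaks at Input peaks left out of fixed classes, gave 62.8%, 61.3%, 0.58, 0.71, 7.19, 9.46, 29.1 and 1.57. A q under 0.05 gave shares of 71.6% and 73.0%, width ratios of 0.78 and 1.40, and H3K4me3 gaps of 45.1 and 20.8, and a fold above 1.5 moved only the Pol2 share, to 71.8%. Midpoint offsets were 269.5 (50% cover), 327.5 (q), 252 (no Input) and 384.5 bp (joined). Width differences were -201 (q), -45 (no Input) and -299 bp (joined). The H3K36me3 differences were -25.5 (50% cover), -38.2 (q), -13.9 (no Input) and -31.6 points (joined). The 50% rule requires more overlap by definition, and removing peaks at Input peaks left 37286 Pol2 and 43886 H3K9ac peaks. The cause of the moves was not tested.

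No paired analysis was possible because each target has 1 library. Leaving out a replicate was not possible either. Depth is unknown, so that a missing peak means only a peak not called.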

Other observations

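H3K9ac midpoints inside long Pol2 peaks were spread nearly evenly between the ends and the middle. Inside the 6444 Pol2 peaks of 2400 bp or more lay 11549 H3K9ac midpoints. Each of 5 equal steps from the nearer end to the middle held between 18.6% and 21.04% of them. H3K9ac peaks that reached over an end with their midpoint outside were not counted, and the ends were not told apart. Whether H3K9ac capped the ends was therefore not tested for these long Pol2 peaks. H3K9ac covered 64.8% of the bases of these peaks, and Pol2 covered 76.8% of the bases of H3K9ac peaks of the same length.

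Shared peaks with and without H3K27me3 were nearly equal in number. Of shared Pol2 peaks 25860 touched H3K27me3, with a median of 9 other acetylations, and 24714 did not, with a median of 11. H3K4me3 was touched by 48.7% of the former and 55.6% of the latter.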
